A study of Mus musculus with 6 samples.

Results

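The mitochondrial ribosomal protein genes were taken as the protein-coding rows of the deposited table whose symbol begins with Mrpl or Mrps followed by a number. Of 22956 rows in the table, 78 met this rule, and Mrps23 was then left out because it lies near the targeted gene Mir21a, which leaves 77 members. Another 4 rows with such symbols are pseudogenes and are not members. The members lie on 17 chromosomes, 49 carry an Mrpl and 28 an Mrps symbol, and all 77 passed the filter on low counts that left 16654 genes for testing.

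Mitochondria keep their own ribosome, which makes the few respiratory chain proteins encoded by mitochondrial DNA. Its ribosomal RNAs come from the mitochondrial genome, but every protein of its large (Mrpl) and small (Mrps) subunit is encoded in the nucleus, made in the cytoplasm and imported. Some of these proteins descend from bacterial ribosomal proteins, and others were added in mitochondria. In smooth muscle, as in other tissues, they are housekeeping proteins on which the supply of respiratory complexes depends.

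RNA was sequenced from aortic smooth muscle cells of C57B6 mice aged 30 weeks and fed a western diet for 20 weeks, in 3 WT and 3 miR-21 knockout samples. WT samples have the genotype WT/mTmG/ Myh11ERT2 and knockout samples miR-21fl/flmTmG/Myh11ERT2, so both groups carry the mTmG colour reporter and the inducible recombinase driven by the smooth muscle promoter of Myh11, and only the knockout carries the floxed miR-21 gene. Deletion is therefore limited to cells in which that promoter is active, and no inducing treatment is named in the labels used here. The tissue is given as aorta, frozen before RNA extraction, with no cell sort named. The labels do not say whether replicates are separate animals or pools, so every p-value measures only the spread between these samples, which may be technical.

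The total estimated count per library ran from 37787465 to 154384307. The level of Mir21a itself was not analysed here, so the loss of the microRNA was not checked in these libraries. Of 8 smooth muscle markers all 8 were tested, and their summed level was 23180 to 34826 CPM (counts scaled to a common library size) in WT libraries and 27816 to 36198 CPM in knockout libraries. Of these 8, 7 had a log2 fold change above 0, with Myocd the highest at 0.36 ± 0.15. Des lay below 0 at -0.45 ± 0.20, with every knockout library below every WT library. Fibroblast markers (8 of 8 tested) summed to 2991 to 6664 CPM in WT libraries and 1314 to 5448 CPM in knockout libraries, macrophage markers (6 of 8 tested) to 7.76 to 29.5 and 6.38 to 29.0 CPM, and cardiac markers (6 of 8) to 41.1 to 52.6 and 47.8 to 75.2 CPM. Of the 8 fibroblast markers, 7 had a log2 fold change below 0 and 1 above it, with a median of -0.37, and the groups overlapped in each. Of the 6 cardiac markers tested, Ryr2 (log2 fold change 0.54 ± 0.08), Actc1 (1.44 ± 0.38), Tnni3 (0.86 ± 0.34) and Myl4 (0.41 ± 0.16) had every knockout library above every WT library and an unadjusted edgeR p under 0.05, though no adjusted p under 0.05, and Myh6 was at most 0.870 CPM. Tnnt2, another of the 6, had a log2 fold change on the other side of 0 (-0.27 ± 0.51), and its groups overlapped. The part of these markers in the members' values was not tested. Brown adipocyte markers (4 of 8 tested) summed to 9.38 to 11.4 and 8.07 to 12.6 CPM, and erythrocyte markers (5 of 8 tested) to 14.4 to 369 and 25.7 to 193 CPM, highest in WT 1 and knockout 1. Each sum takes in every marker with a row in the deposited table, tested or not. These were 8 macrophage, 6 cardiac, 7 brown adipocyte and 8 erythrocyte markers. Of the endothelial markers, Pecam1 made up most of a sum of 61.3 to 71.5 CPM, while Cdh5, which defines this cell type, was at most 0.580 CPM. The bulk values below cannot tell fewer cells of a type from less RNA per cell.

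The sequence through which miR-21 could act on a member directly is a 3′ UTR match to its seed, bases 2 to 8 of the microRNA, in capitals here as listed by RefSeq (GRCm38.p6):

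miR-21a-5p: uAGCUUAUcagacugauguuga

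Among the 77 members, 3 (3.90%) hold the matching ATAAGCT in the 3′ UTR of their principal GENCODE M21 transcript, against 966 of 13193 tested genes with a 3′ UTR (7.32%). The members' 3′ UTRs are short, with a median of 327 bases against 1050 bases over those genes. The sites of Mrpl9 and Mrpl58 are shown with their flanks because they are where the microRNA could pair with these messages, with the seed match in capitals (GRCm38):

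Mrpl9, chr3:94448100-94448128, plus strand: cagtagatgtaATAAGCTgaatatcagtg

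Mrpl58, chr11:115411772-115411800, plus strand: ttcttaatcaaATAAGCTttgccctggtc

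Mrpl9, a large-subunit protein, read 17.1, 16.9 and 16.5 CPM in WT and 13.7, 16.8 and 12.8 CPM in the knockout. Its groups overlap through knockout 2 alone, and the log2 fold change (the knockout relative to WT, with its standard error) was -0.22 ± 0.11 (edgeR unadjusted p = 0.089). Mrpl58, a peptidyl-tRNA hydrolase built into the large subunit that can release stalled chains, read 19.3, 21.3 and 18.4 CPM in WT and 18.3, 18.9 and 17.3 CPM in the knockout, a log2 fold change of -0.11 ± 0.08. No direction is read from these for members with a site as a group.

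Nuclear genes for mitochondrial proteins often carry promoter elements bound by NRF1, by ETS factors such as GABP, and by YY1. RefSeq promoter windows (250 bases before to 50 after the start site, GRCm38.p6) were found for 68 of the 77 members and searched on both strands for CGCATGCG (NRF1 core, its own reverse complement), CCGGAAG (ETS) and AAGATGGC (YY1). ETS and YY1 matches can overlap through the letters AAG. The ETS letters are in 25 member windows (36.8%), against 19.3% of 10261 windows of tested coding genes and 9.93% of all 27025 windows. The NRF1 core is in 7 (10.3%, against 4.20% and 2.07%) and the YY1 letters are in 12 (17.6%, against 5.10% and 3.19%). At least 1 of the 3 motifs is in 37 members (54.4%, against 26.2% and 14.1%), and at least 2 are in 7 (10.3%, against 2.35% and 1.01%). These shares describe letters in a window and not binding.

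The stretches below show ETS and NRF1 matches, in capitals, upstream of the start of 6 of the members that the results name. Each is on the strand of its gene (GRCm38) and outside any exon of GENCODE M21:

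Mrpl22, chr11:58171599-58171651, plus strand: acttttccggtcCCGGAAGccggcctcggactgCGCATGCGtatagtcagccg

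Mrpl10, chr11:97041435-97041466, plus strand: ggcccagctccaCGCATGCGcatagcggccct

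Mrpl43, chr19:45006443-45006510, minus strand: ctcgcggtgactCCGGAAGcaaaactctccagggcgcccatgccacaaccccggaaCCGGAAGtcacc

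Mrpl52, chr14:54426850-54426880, plus strand: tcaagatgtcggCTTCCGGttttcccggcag

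Mrpl58, chr11:115403723-115403751, plus strand: gctggcggaccgCCGGAAGagtgagcacc

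Mrps22, chr9:98601680-98601702, minus strand: aaacctctcgagCCGGAAGttgc

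Mrpl22 holds an ETS and an NRF1 match, Mrpl43 holds 2 ETS matches, and in Mrpl52 the ETS letters read on the opposite strand. Mrpl34 (log2 fold change 0.01 ± 0.07) also has such a stretch, with an ETS match, that is not printed. Members with an NRF1 core had a median log2 fold change of -0.11 (n = 7) and those without it -0.06. For the ETS letters the medians were -0.05 with and -0.07 without, and for YY1 -0.04 with and -0.07 without.

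The members were expressed at moderate levels, with a median of 19.1 CPM over the genes and a range from 0.993 CPM (Mrpl23) to 55.5 CPM (Mrpl4). Per kilobase of annotated exon, Mrps21, a small-subunit protein, stood highest at 34.8 CPM per kb, before Mrpl34 at 31.8, Mrps28 at 26.0 and Mrpl18 at 25.2. The lowest were Mrpl23 at 0.203 CPM per kb, Mrps10 at 1.21 and Mrps35 at 1.28. Replicates agreed closely: the median SD within groups was 0.085 on the log2 CPM scale, against 0.166 over all genes tested, and fold changes had a median standard error of 0.080 against 0.136.

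Most mitochondrial ribosomal protein messages were slightly below WT in the knockout, and none passed the test. Of the 77 members, 64 (83.1%) had a log2 fold change below 0 and 13 above it, where 50.6% of all genes tested lay below 0. The median was -0.07 for the members and -0.002 for all genes, so the typical distance from WT was smaller than the median standard error of a single member. No member was called at an adjusted p under 0.05 by edgeR's quasi-likelihood test, which called 0% of all genes. DESeq2 called 0.301% of the genes it gave an adjusted p and 0 members, and limma-voom called 0 members. At an unadjusted edgeR p under 0.05, 1 member (Mrpl55) was lower, where 2.01% of all genes were, and 0 were higher, where 3.95% of all genes were. The 1 member of 77 is a share near the background, so single members give no result at this threshold. The smallest adjusted p among the members was 0.780 (Mrpl55, edgeR).

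**Figure D1:**
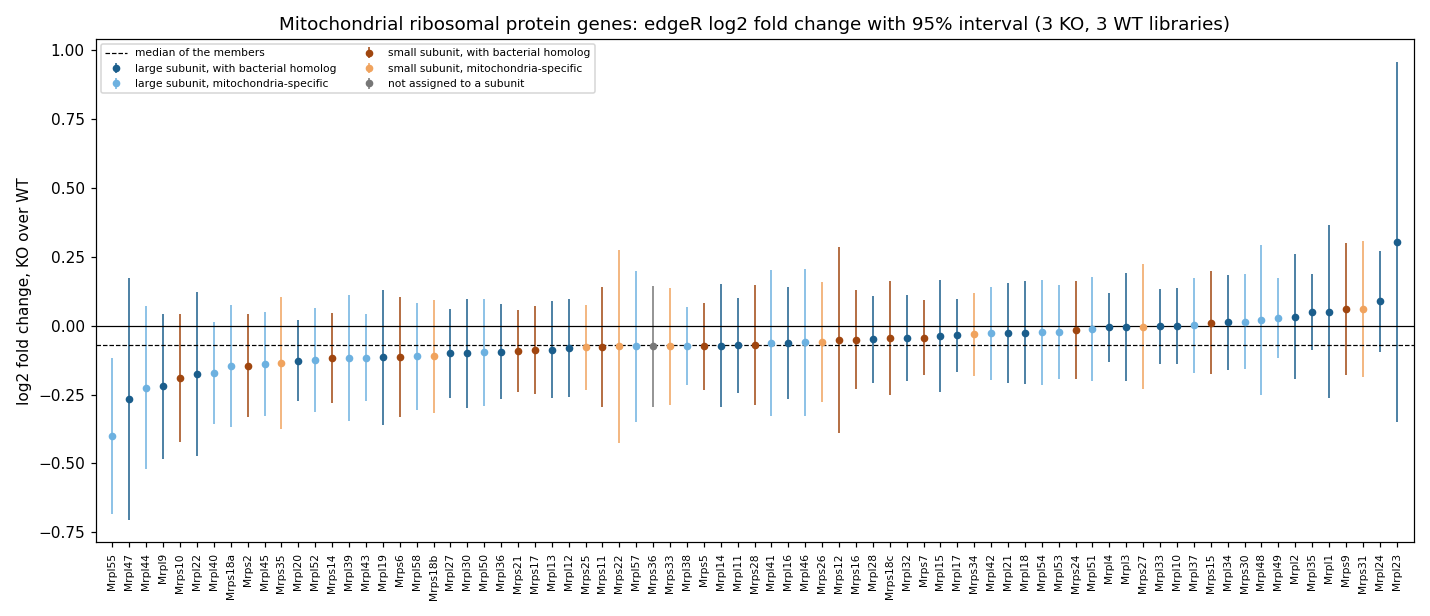
Each point is the edgeR log2 fold change (knockout over WT) of 1 of the 77 members with its 95% interval, ordered from lowest to highest and coloured by subunit and origin; the dashed line is the members' median. 64 points lie below 0, the interval of Mrpl55 alone leaves out 0, and Mrpl23, the least expressed member, has the widest interval.

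The intervals describe how large the differences could be given the spread between these samples, which may be technical. The 95% interval of the fold change lay within 1.5-fold in either direction for 74 of the 77 members and within 1.25-fold for 56. By the fold change of the edgeR fit, the knockout was within 5% of WT in 41 members and within 10% in 69. The spread of the members was also narrow: their log2 fold changes ran from -0.40 to 0.31, and their interquartile range from -0.11 to -0.01, where that of all genes ran from -0.11 to 0.12.

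**Figure D2:**
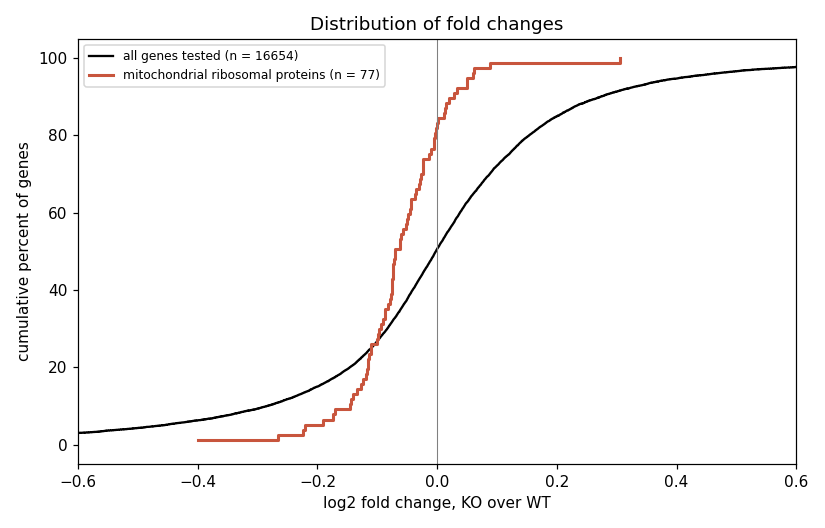
The curves give the cumulative percent of genes (vertical axis) with a log2 fold change, knockout over WT, up to the value on the horizontal axis, for the 77 members and for all 16654 genes tested. At 0 the members' curve has reached 83.1% and that of all genes 50.6%.

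In the mean over the members every knockout library lay below every WT library, but by a narrow gap and not to the same extent. The mean centred log2 CPM of the 77 members stood at 0.001, 0.057 and 0.038 for WT 1, 2 and 3 and at -0.083, -0.007 and -0.005 for knockout 1, 2 and 3. The groups did not overlap, WT 1 lay closest to the knockout, and knockout 1 lay lowest. Over all genes tested the same mean stood at 0.034, -0.031 and 0.009 for WT 1, 2 and 3. For knockout 1, 2 and 3 it stood at 0.056, -0.039 and -0.029. Each of these offsets is larger than the gap between WT 1 and knockout 3 in the members. The members' means were not corrected for them, and the lack of overlap holds only for these uncorrected values. Against the mean over all genes in the same library, the members lay lower in WT 1 and higher in knockout 2 and 3. With the offsets taken off, the groups therefore overlap. The summed level of the 77 members was 1634, 1705 and 1673 CPM in WT and 1555, 1633 and 1627 CPM in the knockout. WT 1 and knockout 2 were almost equal on that scale. Knockout 1 held the lowest value of the 6 libraries in 31 members (40.3%, against 15.6% of all genes tested), and WT 2 the highest in 29 (37.7%, against 15.3%). Without knockout 1 the median log2 fold change of the members was -0.04 and 56 were below WT. Knockout 1 and WT 1 also had the lowest smooth muscle sum of their groups (27816 and 23180 CPM) and the highest fibroblast sum (5448 and 6664 CPM), and the part of these values in the members' levels was not tested.

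**Figure D3:**
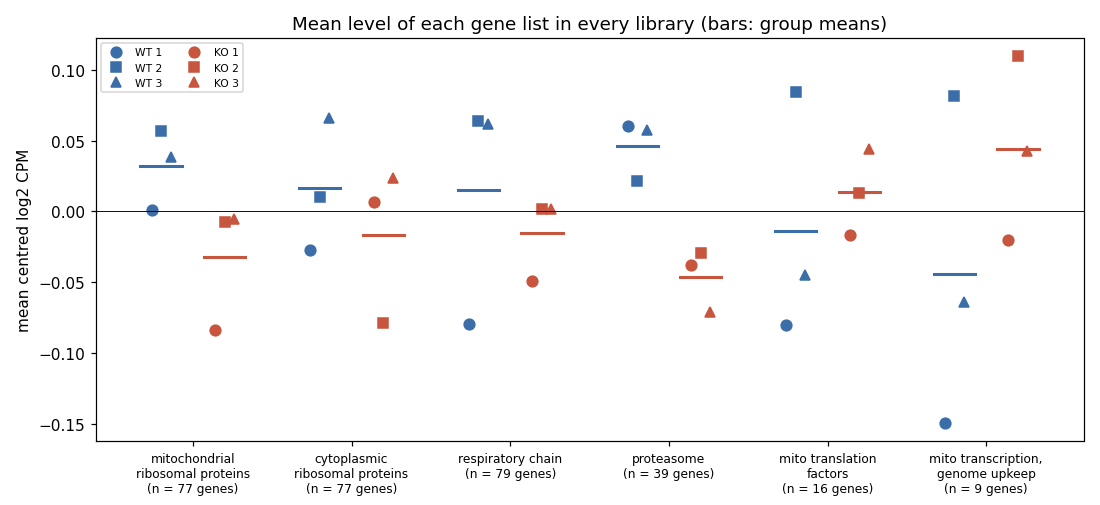
Each point is 1 library's mean centred log2 CPM over a gene list (circle, square and triangle for replicate 1, 2 and 3), with horizontal bars at the group means. WT and knockout points do not overlap for the mitochondrial ribosomal proteins (lowest WT 0.001, highest knockout -0.005) or the proteasome, and overlap for the other 4 lists. The points are not corrected for each library's mean over all genes, and those of the mitochondrial ribosomal proteins overlap once it is taken off.

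All knockout libraries were below all WT libraries in 14 members (18.2%), where 5.6% of all genes tested showed this, and all were above in 1 member, Mrpl35, where 6.48% did. The 14 were Mrpl20, Mrpl22, Mrpl27, Mrpl32, Mrpl38, Mrpl40, Mrpl43, Mrpl44, Mrpl52, Mrpl55, Mrps2, Mrps7, Mrps10 and Mrps21. They come from both subunits.

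Large-subunit proteins with a bacterial homolog numbered 29, of which 23 were below WT, with a median log2 fold change of -0.04. Mrpl20, an early-assembling protein of the large subunit in bacteria, read 38.1, 41.1 and 39.4 CPM in WT and 35.1, 35.7 and 37.8 CPM in the knockout, where the highest knockout library stayed just under the lowest WT library. Its log2 fold change was -0.13 ± 0.06 (SE; edgeR unadjusted p = 0.080). Mrpl22, which lines the exit tunnel for the growing chain, was near 6 CPM and had a log2 fold change of -0.17 ± 0.13. Mrpl47 had a log2 fold change of -0.27 ± 0.19 at 7.17 CPM, with knockout 2 at 4.90 CPM and knockout 3 at 7.90 CPM, so its groups overlapped.

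The stalk that recruits translation factors is formed by Mrpl10 and copies of Mrpl12, and the pair differed little from WT. Mrpl12 read 19.7, 22.3 and 22.1 CPM in WT and 19.9, 20.7 and 20.1 CPM in the knockout (log2 fold change -0.08 ± 0.07). Mrpl10 read 36.6, 36.1 and 38.6 CPM in WT and 36.3, 37.99 and 36.96 CPM in the knockout. Its log2 fold change was -0.001 ± 0.06, with a 95% interval from -0.14 to 0.14, and its sign turned when single libraries were left out. The most abundant member, Mrpl4, read 55.9, 54.7 and 56.3 CPM in WT and 54.8, 54.2 and 57.2 CPM in the knockout, and its log2 fold change was -0.01 ± 0.05.

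Members with values above WT were few, and their distances were small. Mrpl35, a large-subunit protein, read 23.2, 24.0 and 24.1 CPM in WT and 24.4, 24.6 and 24.8 CPM in the knockout. Its groups did not overlap, but its log2 fold change of 0.05 ± 0.06 was within its error (edgeR unadjusted p = 0.423). Mrpl24 had the smallest p of the members above WT (edgeR unadjusted p = 0.292), with a log2 fold change of 0.09 ± 0.08. It read 25.3, 24.7 and 26.2 CPM in WT and 24.7, 27.3 and 29.0 CPM in the knockout. Mrpl34 read 18.6, 18.9 and 20.1 CPM in WT and 18.8, 18.9 and 20.5 CPM in the knockout (0.01 ± 0.07), with groups that overlap almost wholly. Mrpl18, which in bacteria binds the 5S ribosomal RNA, had a log2 fold change of -0.02 ± 0.08. The sign of Mrpl34 and of Mrpl18 turned when single libraries were left out, so no direction is read for either.

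Mrpl23 had the highest log2 fold change of the members, 0.31 ± 0.28, but its counts are uncertain. It was given 0.712, 0.761 and 1.17 CPM in WT and 0.965, 1.21 and 1.14 CPM in the knockout, while its pseudogene Mrpl23-ps1 carried most of the pair's counts. Mrpl23 took between 2.12% and 3.46% of their sum in a library. The sum of both was 33.9 ± 1.93 CPM in WT libraries and 34.6 ± 2.86 CPM in knockout libraries (SD over 3 libraries), a difference smaller than the SD of either group. Such a sum lies within the range of the other members.

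Large-subunit proteins listed as specific to mitochondria numbered 22, and 18 of them were below WT with a median log2 fold change of -0.07. Mrps18a and Mrps30 are counted here by their place in the ribosome, although Mrps18a is related to a bacterial small-subunit protein. Mrpl55 (chr11:59202486-59206134, plus strand), a protein of this class, had the largest distance from WT of all members. It read 16.6, 18.1 and 17.3 CPM in WT and 10.9, 14.1 and 14.4 CPM in the knockout, so that every knockout library was below every WT library and knockout 1 lowest. Its mean was 17.3 ± 0.780 CPM over the WT libraries and 13.1 ± 1.93 CPM over the knockout libraries (SD over 3), and the log2 fold change was -0.40 ± 0.12 (SE; edgeR unadjusted p = 0.012, adjusted p = 0.780). Without knockout 1 its log2 fold change was -0.29.

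Mrpl40 read 15.8, 15.1 and 15.9 CPM in WT and 14.7, 13.2 and 13.6 CPM in the knockout, without overlap, and its log2 fold change was -0.17 ± 0.08 (edgeR unadjusted p = 0.063). Mrpl44, a protein related to ribonuclease III whose mutation causes an infantile cardiomyopathy, read 9.65, 10.97 and 9.14 CPM in WT and 7.40, 8.93 and 9.08 CPM in the knockout. The highest knockout library of Mrpl44 was just under the lowest WT library, and its log2 fold change was -0.22 ± 0.12. Mrpl45, which anchors the ribosome to the inner membrane, read 19.2, 20.3 and 18.0 CPM in WT and 17.2, 16.5 and 18.3 CPM in the knockout, with knockout 3 inside the WT range (-0.14 ± 0.08). Mrpl43 and Mrpl52, whose promoter stretches are printed above, had log2 fold changes of -0.12 ± 0.07 and -0.12 ± 0.08, both with every knockout library below every WT library. Mrpl49 lay on the other side of 0, at 0.03 ± 0.06. Mrps30, a large-subunit protein in spite of its name, read 25.1, 25.3 and 25.2 CPM in WT and 23.5, 27.3 and 25.6 CPM in the knockout, a log2 fold change of 0.02 ± 0.07. The WT values of Mrps30 lie inside the range of the knockout values, and its sign turned without knockout 2.

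**Figure D4:**
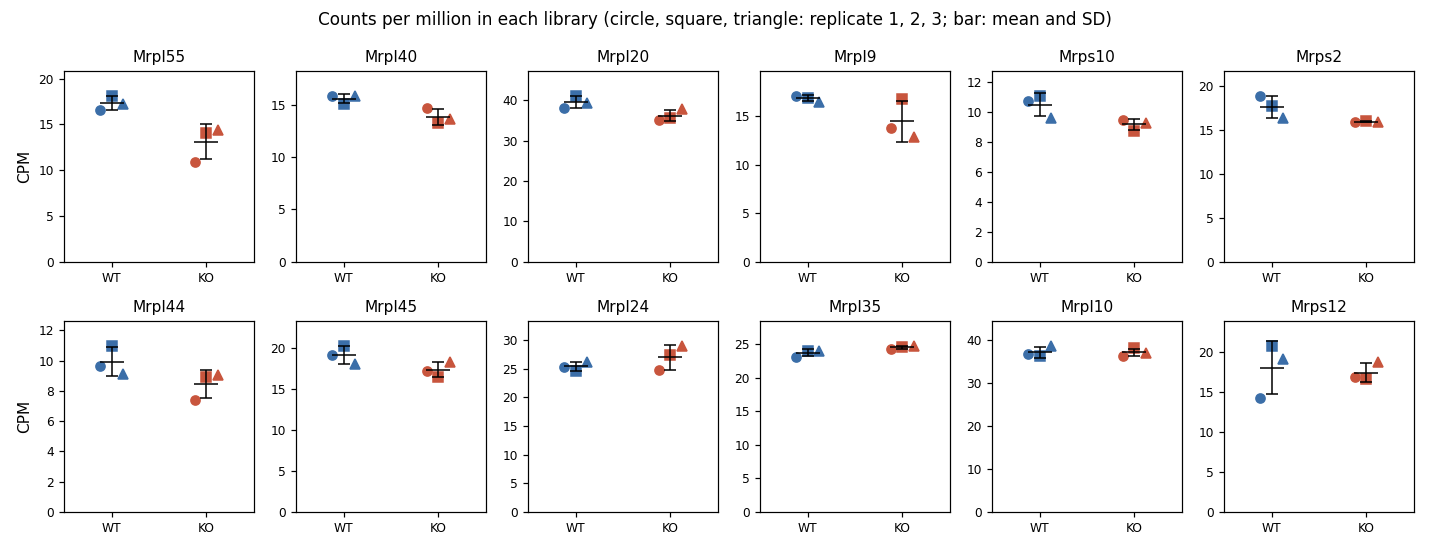
CPM of 12 members in each library, with replicate 1, 2 and 3 as circle, square and triangle, and a bar for the group mean with its SD; every vertical axis starts at 0. Knockout points lie below all WT points for Mrpl55, Mrpl40, Mrpl20, Mrps10, Mrps2 and Mrpl44, above them for Mrpl35, and overlap them for Mrpl9, Mrpl45, Mrpl24, Mrpl10 and Mrps12.

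Small-subunit proteins with a bacterial homolog numbered 16, and 14 of them were below WT with a median log2 fold change of -0.07. Mrps10 read 10.7, 11.1 and 9.58 CPM in WT and 9.47, 8.72 and 9.26 CPM in the knockout, with no overlap and a log2 fold change of -0.19 ± 0.10 (edgeR unadjusted p = 0.093). Mrps2 read 18.9, 17.7 and 16.4 CPM in WT and 15.96, 16.02 and 15.91 CPM in the knockout. The knockout libraries of Mrps2 were almost identical and sat under a spread of WT values, at -0.14 ± 0.08. Mrps21, the highest member per kilobase, had a log2 fold change of -0.09 ± 0.06 with no overlap.

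Mrps12, the protein of the decoding centre that corresponds to the bacterial target of streptomycin resistance, read 14.3, 20.8 and 19.1 CPM in WT and 16.8, 16.6 and 18.8 CPM in the knockout. Here WT 1 was the lowest of all libraries, and the log2 fold change was -0.05 ± 0.14. Mrps28 had -0.07 ± 0.09. Mrps9 had a log2 fold change of 0.06 ± 0.10 and read 11.6, 12.99 and 13.2 CPM in WT and 12.01, 13.02 and 14.4 CPM in the knockout, with wide overlap. The sign of Mrps12, Mrps28 and Mrps9 each turned when 1 library was left out, so no direction is read for them.

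Small-subunit proteins listed as specific to mitochondria numbered 9, with Mrps18b, a relative of a bacterial protein, counted among them. Of the 9, 8 were below WT with a median log2 fold change of -0.07, although no member of this class had groups that did not overlap. Mrps22, mutated in a human disorder with cardiomyopathy, read 7.57, 6.68 and 8.32 CPM in WT and 5.98, 7.80 and 7.65 CPM in the knockout (-0.07 ± 0.15), and its sign turned without WT 3 and without knockout 1. Mrps35 read 10.4, 11.98 and 12.4 CPM in WT and 10.1, 11.1 and 10.4 CPM in the knockout (-0.13 ± 0.10). WT 1 of Mrps35 was within the knockout range. Mrps31 was the member of this class above WT, at 0.06 ± 0.10.

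The 3 Mrps18 paralogs descend from 1 bacterial protein and take different places: Mrps18a sits in the large subunit, and Mrps18b and Mrps18c in the small one. Mrps18a read 22.9, 26.1 and 24.6 CPM in WT and 24.4, 21.9 and 20.2 CPM in the knockout (log2 fold change -0.15 ± 0.09). Mrps18b read 14.3, 15.2 and 14.9 CPM in WT and 14.9, 12.8 and 13.3 CPM in the knockout (-0.11 ± 0.09). Mrps18c read 11.4, 10.5 and 10.3 CPM in WT and 10.2, 10.2 and 10.7 CPM in the knockout (-0.05 ± 0.09). In Mrps18a and Mrps18b knockout 1 lay inside the WT range and the other two knockout libraries below it. Mrps36, named for the ribosome but not assigned here to a subunit, had a log2 fold change of -0.07 ± 0.09.

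Mrps23, left out of the set, lies 1.62 Mb from Mir21a on chromosome 11. It read 19.01, 18.9 and 19.2 CPM in WT and 14.5, 13.5 and 13.7 CPM in the knockout, and its log2 fold change was -0.45 ± 0.07 (SE; edgeR adjusted p = 0.387). Chromosome 11 also holds 10 members, at distances of 8.07 to 80.9 Mb from Mir21a, a grouping that was looked at after the values were seen. All 10 were below WT, with a median log2 fold change of -0.09, and 5 (Mrpl22, Mrpl27, Mrpl38, Mrpl55 and Mrps7) had groups that did not overlap. Of all 1274 tested genes on chromosome 11, 53.1% were below WT, and 5.89% had all knockout libraries below all WT libraries. Over all genes tested that last share was 5.6%. Of the 67 members elsewhere, 54 were below WT with a median of -0.06, and 9 had all knockout libraries below all WT libraries. The nearest members to Mir21a were Mrpl27 (-0.10 ± 0.07) and Mrpl10 (-0.001 ± 0.06). The part of the position on the chromosome in these values was not tested.

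Among the members, 18 (23.4%) share a divergent promoter with another coding gene, against 9.97% of 13279 tested coding genes. Such pairs have start sites within 1000 bases on opposite strands and gene spans that do not overlap. The members Mrps11 and Mrpl46, which lie on opposite strands and overlap at their starts, are therefore not counted. The neighbours lay on both sides of WT: of 17 tested partners 7 were below WT (41.2%), with a median log2 fold change of 0.03, where the 17 members facing them had a median of -0.05. None of the partners had an unadjusted edgeR p under 0.05. Mrpl40 (-0.17 ± 0.08) faces Hira, a histone chaperone gene, at 0.22 ± 0.14 across 175 bases. Mrps18b faces Ppp1r10, a phosphatase regulator gene, at 0.34 ± 0.15 across 45 bases. Mrpl32 (-0.04 ± 0.07) faces the proteasome gene Psma2, which at -0.13 ± 0.06 was also below WT. No test of the difference between members and partners was made.

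The members are short genes, and fold changes in these libraries varied with gene length. The median exon length was 2533 bases for the members and 3795 bases for all genes tested. From the shortest to the longest quartile of exon length, 60.3%, 58.0%, 49.6% and 34.9% of all genes tested were below WT, and their median log2 fold changes were -0.04, -0.03, 0.002 and 0.06. Of the members, 32 of 36 in the shortest quartile, 16 of 18 in the second, 6 of 11 in the third and 10 of 12 in the longest were below WT. The share below WT was thus higher among members than among all genes in each quartile, by the least in the third. The part of gene length in the members' values was not tested.

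**Figure D5:**
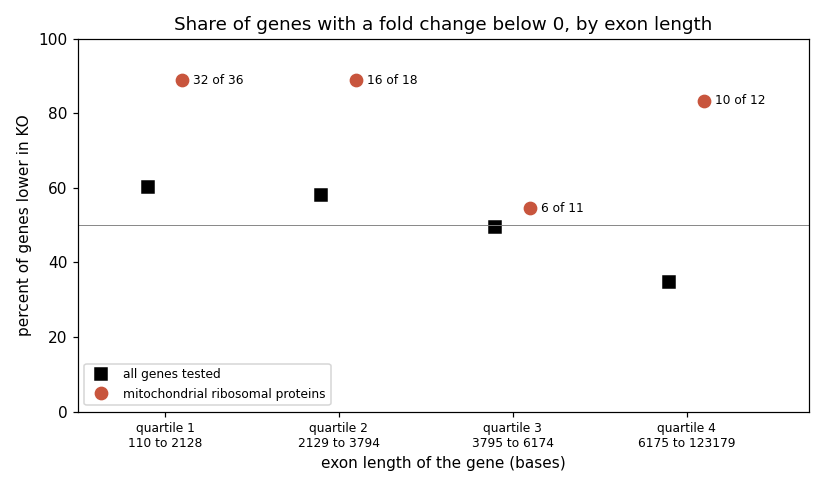
The percent of genes with a log2 fold change below 0 is plotted for 4 quartiles of exon length, for all genes tested (squares) and for the members (circles, with their counts). The squares descend from 60.3% to 34.9%, and the circles stand at 32 of 36, 16 of 18, 6 of 11 and 10 of 12 members.

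Of the 77 members, 35 overlap another gene row and could share reads with it. Of the 42 that overlap none, 34 were below WT, with a median log2 fold change of -0.07, and 11 (26.2%) had all knockout libraries below all WT libraries. Of the 35 that overlap another row, 30 were below WT, with a median of -0.06. In 3 of them (8.57%) all knockout libraries were below all WT libraries, where 5.6% of all genes tested showed this.

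The lists of other genes of mitochondrial translation and its supply ranged from mostly below to mostly above WT, and their difference from the members was not tested. Of 5 mitochondrial ribosomal proteins under other symbols, 4 were below WT. Aurkaip1, a small-subunit protein, read 41.3, 40.4 and 40.8 CPM in WT and 36.4, 36.0 and 37.1 CPM in the knockout, clear of each other. Its log2 fold change was -0.16 ± 0.05 (edgeR unadjusted p = 0.018, adjusted p = 0.793). Ptcd3 had 0.09 ± 0.08. Of 27 genes for ribosome assembly and rRNA modification, 17 were below WT (median -0.02), among them Rpusd4, a pseudouridine synthase, at -0.25 ± 0.12, while the GTPase gene Gtpbp10 was at 0.12 ± 0.11. None of the 27 had an unadjusted p under 0.05.

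Of 16 translation factor genes, 7 were below WT, with a median log2 fold change of 0.02. Gfm2, an elongation factor homolog of ribosome recycling, read 11.6, 11.6 and 12.7 CPM in WT and 14.64, 12.999 and 13.67 CPM in the knockout (0.20 ± 0.09), and its recycling partner Mrrf read 13.6, 12.003 and 12.2 CPM in WT and 10.4, 10.8 and 11.7 CPM in the knockout (-0.20 ± 0.09). The groups of both genes did not overlap, in opposite directions. Of 20 genes that charge mitochondrial tRNAs, 11 were below WT, with Gatc at -0.16 ± 0.06 (edgeR unadjusted p = 0.042) and Mars2 at 0.26 ± 0.14.

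Of 9 genes that copy and transcribe the mitochondrial genome, 2 were below WT and the median was 0.11. Polrmt, the mitochondrial RNA polymerase, read 26.4, 30.9 and 29.1 CPM in WT and 32.1, 33.5 and 32.9 CPM in the knockout (0.19 ± 0.07, edgeR unadjusted p = 0.039, adjusted p = 0.830), and Top1mt was at -0.07 ± 0.19. Of 11 regulators of mitochondrial genes, 4 were below WT, with the coactivator Pprc1 at 0.15 ± 0.07 and the ETS partner Gabpb1 at -0.06 ± 0.07. Among factors that read the 3 motifs searched for, Nrf1 stood at 0.06 ± 0.09, Gabpa at 0.10 ± 0.07 and Yy1 at 0.03 ± 0.09. Messages encoded by mitochondrial DNA were not analysed here.

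Other sets of small housekeeping genes lay on the same side of 0. Of 77 tested cytoplasmic ribosomal protein genes 59 were below WT (76.6%, median -0.05), of 79 nuclear respiratory chain genes 66 (83.5%, median -0.04) and of 39 proteasome genes 36 (92.3%, median -0.07). In the same order, all knockout libraries were below all WT libraries in 14.3%, 7.59% and 25.6%, against 18.2% of the members. The median SD within groups was 0.079, 0.102 and 0.070 on the log2 CPM scale, against 0.085 for the members. The median level was 18.5, 47.3 and 73.0 CPM, against 19.1 CPM for the members. How many reads of these sets were given to pseudogene rows was not tested. The mean centred log2 CPM of the cytoplasmic ribosomal proteins stood at -0.027, 0.010 and 0.066 for WT 1, 2 and 3 and at 0.007, -0.079 and 0.024 for knockout 1, 2 and 3, with overlap. That of the proteasome genes stood at 0.060, 0.021 and 0.057 and at -0.038, -0.030 and -0.071, with no overlap, as for the members before any correction for the means over all genes. That of the respiratory chain genes stood at -0.079, 0.064 and 0.062 and at -0.049, 0.001 and 0.002, where WT 1 was the lowest library and knockout 1 the lowest of the knockout. Knockout 1, lowest of all for the mitochondrial ribosomal proteins, was not the lowest of the 6 libraries for any of these 3 sets. These sets share the 6 libraries with the members, and no test between sets was made.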

How the data were processed

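The authors deposited 1 table of expected counts per gene for all 6 libraries. These estimated counts carry no normalization, and whole numbers make up 43.6% to 54.3% of a library's values. STAR 2.6, DESeq2 and the build mm10 are named, with no role, per the submitters' processing notes. The counting tool is not given in the sources used here. Columns were matched to samples by the sample code.

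Counts were rounded, filtered with filterByExpr, scaled by TMM and tested over all 16654 genes with edgeR 4.0.16 (R 4.3.3) by its robust quasi-likelihood F test (two-sided, Benjamini-Hochberg adjustment, threshold 0.05). CPM values are TMM-scaled, and standard errors and 95% intervals come from that fit. A library's mean over a gene list used log2 CPM with a prior count of 2, centred per gene. The main test was first tested on simulated data. GENCODE M21 (GRCm38, the assembly of mm10) gave exon lengths, 3′ UTRs and overlaps, and all 77 members matched it, 71 by position. RefSeq gave promoter windows and the microRNA. The sequence of 1 matching site is not reported here. Alternatives used DESeq2 1.42.0 and limma 3.58.1. Figures used matplotlib 3.10.9.

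The members and lists were chosen with earlier results of these data known, so no list was given a p-value. The 28 named members are the 6 with the smallest p in each direction, the 4 highest and 3 lowest per kilobase, those with a miR-21 site and 9 chosen for their roles. From each pathway list the gene with the smallest p in each direction is named. Other members named with values (Mrpl4, Mrpl22, Mrpl27, Mrpl32, Mrpl43, Mrpl47, Mrpl52 and Mrps36) were chosen after their values were seen. So were the partners of divergent promoters and Nrf1, Gabpa and Yy1.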

Additional observations from a re-analysis of the deposited data

How the results depend on the processing

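The median log2 fold change of the members stayed below 0 under 13 alternatives, from -0.08 with upper-quartile factors to -0.04 without knockout 1, and 0 members were called under each of them or at an adjusted p under 0.1. With 1 library left out, the members above WT ranged from 10 to 21 (20 without WT 2, 21 without knockout 1) and those below WT at an unadjusted p under 0.05 from 1 to 3. That last count was 2 with upper-quartile factors and 4 with limma-voom with quality weights (Mrpl55, Mrpl40, Mrpl9 and Mrps18a). Mrpl55 stayed below WT under all 13, with an adjusted p of at least 0.185.

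Some members near WT changed sign. Mrpl34 was at -0.00014 with upper-quartile factors, Mrpl10 at 0.00072 when genes needed 1 CPM in 3 libraries, and Mrps18c at 0.0074 with limma-voom. With 1 library left out, log2 fold changes ranged from -0.030 to 0.044 for Mrpl34, -0.024 to 0.025 for Mrpl10, -0.13 to 0.020 for Mrps28, -0.19 to 0.053 for Mrps12, -0.092 to 0.018 for Mrpl18, -0.16 to 0.030 for Mrps22, -0.037 to 0.065 for Mrps30 and -0.0090 to 0.12 for Mrps9. The cause was not tested.

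Same-numbered samples correlated at 0.29, 0.32 and -0.03 in their deviations from the group means, and not every sample correlated best with its own number, so they were not treated as pairs. With the replicate block the members' median was -0.07, 12 were above WT and 0 were called, and over all genes 1 was called, where the fit without it called 0. At this depth and with 3 libraries a group, the 95% interval of 1 member (Mrpl55) left out 0, and differences of the size of the members' median cannot be resolved for a single gene.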
